A study of Mus musculus with 6 samples.

Results

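The genes described here import proteins into mitochondria, shape their inner membrane, or fuse and divide the organelle. They were taken from the array annotation by name: every row with exactly 1 gene symbol that starts with Timm or Tomm (14 genes), and those named in a list of other import, membrane and dynamics genes (15 genes). This gave 29 genes of the 14860 genes with 1 symbol, each with 1 row of the 23332 rows tested. Of the listed genes, Phb, Hspd1 and Hspe1 were not found on a row with 1 symbol. The rule uses names only, and takes the row with the highest mean signal where a gene has several, which no gene here had. The list of names was written with earlier results of these data known. The signal was measured in left ventricle of male C57BL/6 wild-type mice on Affymetrix exon arrays, with 1 mouse per array. The groups were 2 sham-operated mice (Sham), 2 mice with transverse aortic constriction for 1 week (1 W TAC) and 2 mice with constriction for 4 weeks (4 W TAC). This operation narrows the aorta and loads the left ventricle with pressure. The same 2 Sham arrays served both TAC groups, and neither the age of the mice nor the time between the sham operation and collection is given in the sources used here. Each value is a gene-level log2 signal, so that subtracting the mean of one group from that of another gives a log2 ratio. Signals of different genes are not compared, since they depend on the probes.

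Nearly all mitochondrial proteins are encoded in the nucleus and made in the cytosol. The TOM complex of the outer membrane is their common entry gate. From there the SAM complex inserts barrel proteins into the outer membrane, the small Tim chaperones and the TIM22 complex carry metabolite carriers to the inner membrane, and the TIM23 complex with its motor pulls proteins with a cleavable presequence into the matrix. The outer membrane GTPases Mfn1 and Mfn2 and the inner membrane GTPase Opa1 fuse mitochondria, whereas Dnm1l, recruited by Mff and Fis1, divides them. In heart muscle, mitochondria fill much of the cell and supply the ATP for contraction.

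At 1 W TAC all 29 genes had a mean below Sham, and at 4 W TAC most lay near Sham again. The median log2 ratio at 1 W TAC was -0.34, which is 20.7% lower, and the ratios ran from -0.75 (Timm21) to -0.04 (Tomm34). Over all 23332 rows the median was -0.01 and 50.7% of rows lay below 0. Among the 1956 genes with a mean signal of at least 8, the median was -0.09 and 60.4% lay below 0. At 4 W TAC the median of the 29 genes was -0.09, with 22 genes below 0, beside a median of 0.01 and 47.2% below 0 over all rows. Between the TAC groups, 26 of the 29 genes were higher at 4 weeks than at 1 week, with a median log2 ratio of 0.23 against 0.01 over all rows. Among the 1956 genes with a mean signal of at least 8, this median was 0.10, and 1219 genes were higher at 4 weeks.

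By array, the median of the 29 genes, set against each gene's Sham mean, was 0.07 and -0.07 on the Sham arrays, -0.39 and -0.29 on the 1 W TAC arrays, and -0.12 and -0.06 on the 4 W TAC arrays. The 1 W TAC arrays thus lay lowest, and the 4 W TAC arrays lay close to Sham replicate 2. In 23 genes both 1 W TAC arrays lay below both Sham arrays, where 20.8% of all rows and 797 of the 1956 genes with a mean signal of at least 8 did so. None of the 29 had both above, where 19.2% of all rows did. In 25 genes the size of the 1 W TAC ratio exceeded the difference between the 2 Sham arrays.

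**Figure D1:**
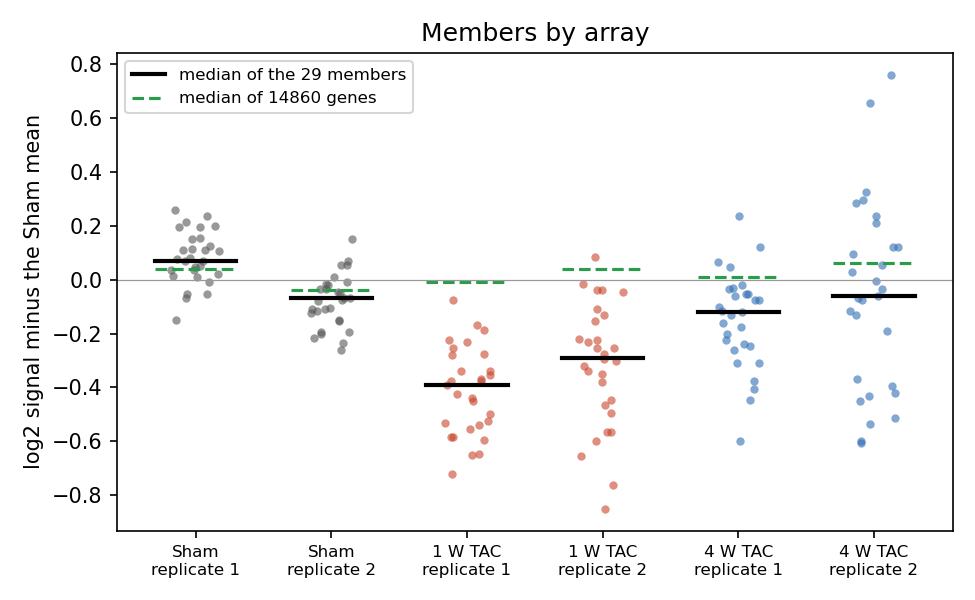
Log2 signal of the 29 genes minus the Sham mean of each gene (vertical axis) on the 6 arrays (horizontal axis). Points are genes, spread sideways for legibility, black bars are their medians, and dashed green bars are medians over 14860 genes. The medians of the 29 genes were -0.39 and -0.29 on the 1 W TAC arrays, while those of all genes lay between -0.04 and 0.06 on the 6 arrays.

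No single gene of the 29 passed limma, a linear model that shares information on the spread across all rows. After Benjamini-Hochberg adjustment over 23332 rows, adjusted p ran from 0.224 (Oma1) to 0.962 (Tomm34) at 1 W TAC, where 0.00429% of all rows passed an adjusted p of 0.05. The lowest adjusted p at 4 W TAC was 0.792 (Timm9), and between the TAC groups it was 0.668 (Hspa9), and 0% of rows passed in either comparison. At an unadjusted p of 0.05 in limma, 285 of the 1956 genes with a mean signal of at least 8 were lower at 1 W TAC and 195 higher. Of the 29 genes, 6 were lower and 0 higher, beside 5.40% and 5.97% of all rows. These were Timm21, Oma1, Mfn1, Hspa9, Timm9 and Tomm40l. The count was 1 without Sham replicate 1, 2 without 1 W TAC replicate 1 and 1 without 1 W TAC replicate 2. At 4 W TAC, 44 of the 1956 genes were lower and 90 higher. Of the 29 genes, 2 were lower (Timm21 and Timm9) and 0 higher, beside 3.15% and 2.55% of all rows. Those 2 became 0 without Sham replicate 1 or without either 4 W TAC array, and 1 without either 1 W TAC array. With 2 arrays a group, an exact test cannot go below p = 0.333, and the p values measure only the spread between these 6 mice.

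Arrays of the same group differed from each other in places. Pearson correlations between arrays, over genes that are not independent replicates, lay between 0.968 and 0.988. Ucp1, a marker of brown fat, had signals of 8.21 and 4.19 on the Sham arrays, 4.40 and 4.18 at 1 W TAC, and 6.35 and 3.96 at 4 W TAC. The fat hormone gene Adipoq, at 5.27 on Sham replicate 1 and 5.29 on 4 W TAC replicate 1, was likewise high on these 2 arrays and lay between 3.53 and 3.91 on the other arrays. The other 7 brown fat markers went in both directions, with mean signals of 5.67 on both Sham arrays, 5.46 and 5.40 at 1 W TAC, and 5.72 and 5.61 at 4 W TAC. Of these, Fabp4, Pparg, Cidea and Plin1 were also higher on Sham replicate 1 and 4 W TAC replicate 1 than on replicate 2. Fabp4, for example, had 7.84 and 7.14 in Sham, and 7.12 and 6.97 at 4 W TAC. Elovl3, Lep and Retn, which had lower signals, were not higher on these 2 arrays. Without these 2 arrays the median ratio of the 29 genes was -0.31 at 1 W TAC, with 27 genes below 0. The 4 W TAC median turned to 0.02, with 12 genes below 0. The 3 atrial markers found of 4 listed had a median ratio of -0.41 at 1 W TAC and 0.88 after 4 weeks, with members in both directions at 1 W TAC. Myl7, the atrial light chain gene, was at 7.59 and 8.06 in Sham, 6.74 and 6.33 at 1 W TAC, and 7.77 and 8.92 at 4 W TAC, and Sln, which encodes sarcolipin, at 5.34 and 5.31, 5.11 and 4.71, and 6.04 and 6.36. Both were lowest at 1 W TAC, as most of the 29 genes were, whereas Nppa, the natriuretic peptide gene that also rises in loaded ventricle, had a ratio of 1.79 ± 0.28 at 1 W TAC. Their part in the ratios of the 29 genes was not tested.

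Cell type markers were read beside these ratios, since fewer cells of a type and less RNA per cell cannot be told apart in a tissue sample. The markers matched the labelled tissue: the 6 cardiomyocyte markers found of 8 listed (Tnnt2, Actn2, Myl2, Ryr2, Pln and Mybpc3) had a mean signal between 12.38 and 12.53 on every array. Their median log2 ratio at 1 W TAC was -0.06 and the one at 4 W TAC was -0.09, with markers in both directions at both times. At 1 W TAC the ratios were -0.41 for Pln, -0.27 for Myl2, -0.10 for Tnnt2, -0.03 for Ryr2, 0.15 for Actn2 and 0.31 for Mybpc3. These signals lay near the highest value on the arrays, 13.69. Whether the share of cardiomyocytes differed was not tested. The mean signal of the 8 fibroblast markers was 8.55 to 8.58 in Sham, 10.06 to 10.29 at 1 W TAC and 9.23 to 9.48 at 4 W TAC, and all 8 markers lay above Sham at both times. The 8 macrophage markers had mean signals of 6.43 to 6.53, 7.55 to 8.02 and 6.70 to 7.05 in the same order, also with all 8 above Sham at both times. By mean signal, both lists moved opposite to the import and dynamics genes, being highest at 1 W TAC. Among the fibroblast markers, the 1 W TAC ratios were 3.33 for Col1a1, 2.88 for Col1a2, 3.02 for Col3a1 and 1.57 for Lum. Those of Pdgfra, Dcn, Tcf21 and Dpt were 0.43, 0.51, 0.60 and 0.54. Pdgfra (0.07 ± 0.21) and Dcn (0.04 ± 0.17) hardly differed between the TAC groups. The part of the fibroblast and macrophage markers was not tested either.

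RefSeq promoters (GRCm38.p6, 250 bases before to 50 bases after each start) were matched by symbol for 25 of the 29 genes, with 32 promoters. They were searched on both strands for the letters CCGGAAG (bound by ETS factors such as GABP, a regulator of nuclear genes for mitochondria), TGCGCA (part of the NRF1 site, which reads the same on both strands), AAGGTCA (estrogen-related receptors), CCAAT (NFY) and TGCATCA (the core of the C/EBP and ATF4 site). No 2 of these motifs contain one another. CCGGAAG was found in 16 of the 32 promoters (50%), which belong to 14 genes, among 8.86% of 32851 promoters in all, 12.5% of those of genes on the arrays and 15.4% of those of genes with a mean signal of at least 8. TGCGCA was in 15.6% of the 32 promoters against 7.76% of all, 11% of array genes and 15.9% of genes with a signal of at least 8. For AAGGTCA the share was 6.25%, against 4.72%, 3.52% and 3.25% in the same 3 backgrounds, and for CCAAT it was 43.8%, against 37.4%, 37.6% and 36.5%. TGCATCA was in 9.38%, against 3.15%, 2.34% and 2.15%, which is 3 promoters of 2 genes (Timm22 and Fis1). The mean GC content was 58.9% in the 32 promoters, 53.8% in all and 61.9% in the genes of higher signal. A match of letters is a description and does not show that a factor bound there.

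The stretches from 100 bases before to 30 bases after the start are shown for 5 genes of fusion and import that are described below, to let the motif letters be seen in place. All lie on the plus strand, at chr3:32529382-32529511 for Mfn1, chr16:29579234-29579363 for Opa1, chr9:50603801-50603930 for Timm8b, chr16:57121614-57121743 for Tomm70a and chr15:84192140-84192269 for Samm50. Capitals mark every match to the 5 motifs or their reverse complements. Mfn1 carries the NFY and then the ETS motif, Opa1 carries the NRF1 motif, and Timm8b carries, in this order, the motifs of estrogen-related receptors, ETS factors and NRF1. Tomm70a carries the ETS motif and, nearer the start, its reverse complement, and Samm50 carries the NFY motif alone.
Mfn1: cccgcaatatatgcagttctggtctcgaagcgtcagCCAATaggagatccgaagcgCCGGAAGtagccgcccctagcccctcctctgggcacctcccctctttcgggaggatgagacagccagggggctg
Opa1: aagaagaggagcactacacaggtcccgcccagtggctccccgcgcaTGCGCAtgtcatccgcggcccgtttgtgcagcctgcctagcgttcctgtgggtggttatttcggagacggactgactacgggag
Timm8b: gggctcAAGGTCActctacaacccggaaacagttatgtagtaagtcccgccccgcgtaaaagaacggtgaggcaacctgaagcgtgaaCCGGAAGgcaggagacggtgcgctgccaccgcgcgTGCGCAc
Tomm70a: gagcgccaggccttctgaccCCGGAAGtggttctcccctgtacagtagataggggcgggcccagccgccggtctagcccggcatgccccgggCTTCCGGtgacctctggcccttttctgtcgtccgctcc
Samm50: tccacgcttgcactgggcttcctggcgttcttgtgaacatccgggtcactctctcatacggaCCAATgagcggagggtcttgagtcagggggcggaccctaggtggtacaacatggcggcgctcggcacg

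**Figure D2:**
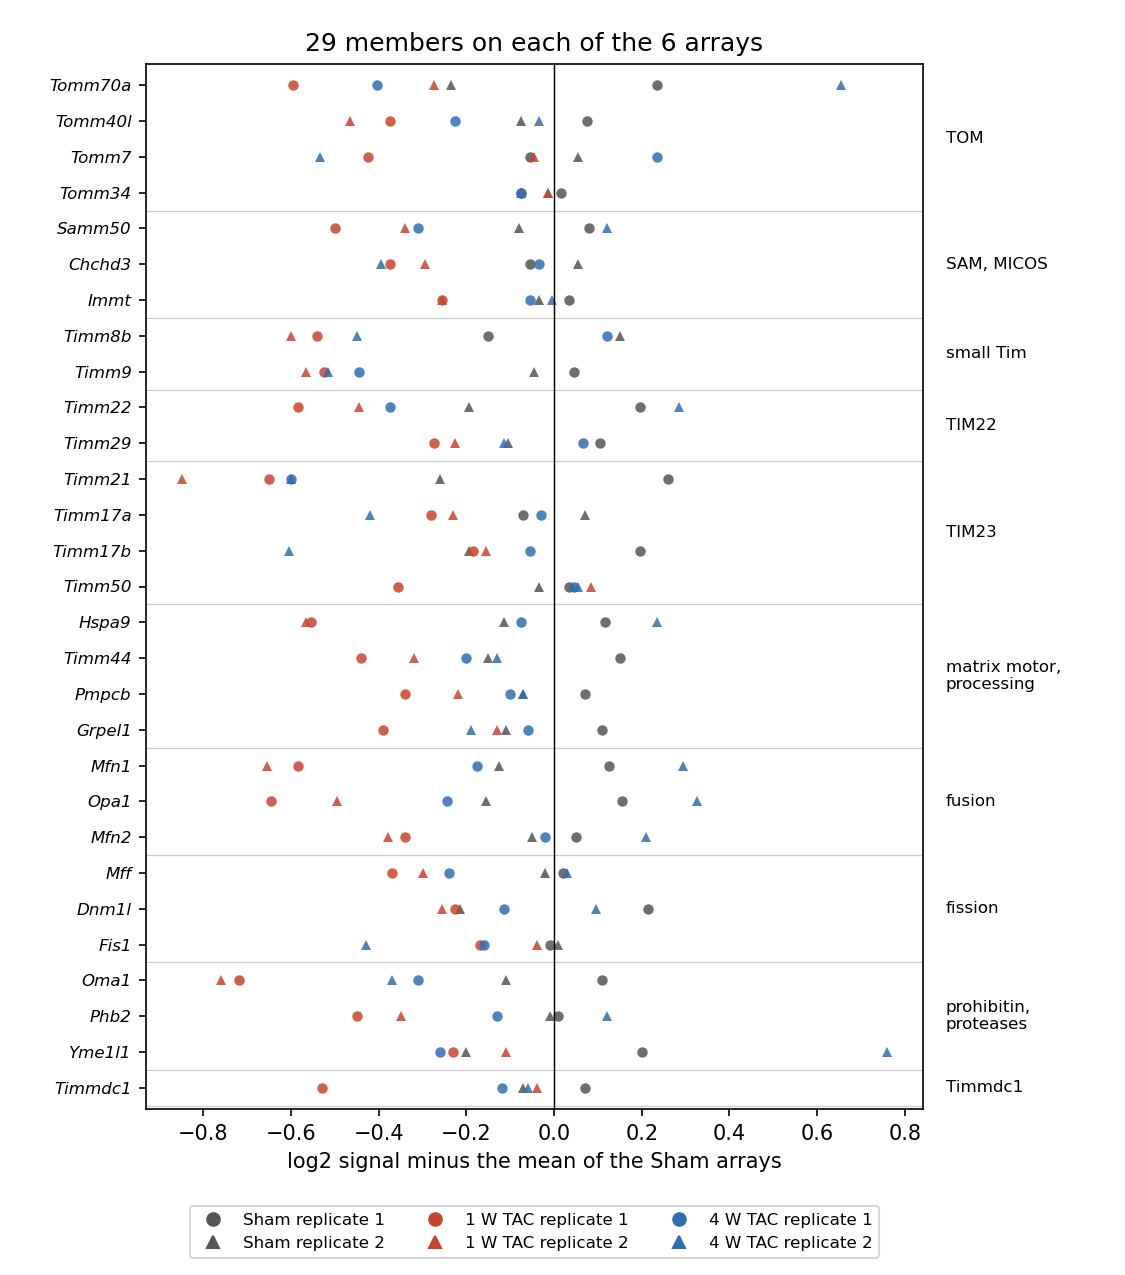
Log2 signal minus the Sham mean (horizontal axis) of each of the 29 genes (vertical axis, grouped by role) on the 6 arrays. Circles are replicate 1 and triangles replicate 2, in grey for Sham, red for 1 W TAC and blue for 4 W TAC. Red points lie left of both grey points in 23 genes, and blue points lie left of both in 5.

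The fusion genes were low at 1 W TAC and back near Sham at 4 W TAC. Their log2 ratios at 1 W TAC had a median of -0.57, at 4 W TAC all 3 were slightly above 0 with a median of 0.06, and between the TAC groups the median was 0.61. Mfn1, an outer membrane GTPase that tethers and fuses mitochondria, had signals of 10.14 and 9.89 in Sham, 9.43 and 9.36 at 1 W TAC, and 9.84 and 10.31 at 4 W TAC. Both 1 W TAC arrays lay below all other arrays, and the 4 W TAC arrays lay on either side of Sham. The log2 ratio of Mfn1 was -0.62 ± 0.22 (SE, n = 2 per group) at 1 W TAC, with an adjusted p of 0.375 in limma, and 0.06 ± 0.22 at 4 W TAC. Mfn2, its paralog that also links mitochondria to the endoplasmic reticulum, had 11.19 and 11.09 in Sham, 10.80 and 10.76 at 1 W TAC, and 11.12 and 11.35 at 4 W TAC. The 1 W TAC arrays were again the lowest, with a ratio of -0.36 ± 0.17 (adjusted p = 0.513 in limma). The 4 W TAC ratio of Mfn2 was 0.10 ± 0.17.

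Opa1, the inner membrane GTPase of fusion and cristae shape, had signals of 9.43 and 9.12 in Sham, 8.63 and 8.78 at 1 W TAC, and 9.03 and 9.60 at 4 W TAC. It was lowest at 1 W TAC on both arrays (ratio -0.57 ± 0.25), and its 4 W TAC arrays lay below and above both Sham arrays (0.04 ± 0.25). Comparing 4 W TAC with 1 W TAC, which leaves out the Sham arrays, all 3 fusion genes were higher on both 4 W TAC arrays. The same held for 19.0% of all rows and 690 of the 1956 genes with a mean signal of at least 8. The log2 ratios were 0.68 ± 0.22 for Mfn1, 0.61 ± 0.25 for Opa1 and 0.46 ± 0.17 for Mfn2, with adjusted p of 0.700, 0.765 and 0.735 in limma.

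The fission genes had smaller ratios at 1 W TAC, with a median of -0.24. Both 1 W TAC arrays lay below both Sham arrays in all 3 genes. This was so in 20.8% of all rows and 797 of the 1956 genes with a mean signal of at least 8. Dnm1l, the dynamin-related GTPase that cuts mitochondria, had signals of 9.50 and 9.07 in Sham, 9.06 and 9.03 at 1 W TAC, and 9.17 and 9.38 at 4 W TAC. The 1 W TAC arrays lay just under Sham replicate 2, so the ratio of -0.24 ± 0.21 rested on Sham replicate 1, and against Sham replicate 2 alone it was -0.03. Mff, which recruits Dnm1l to the outer membrane, had 9.70 and 9.66 in Sham, 9.31 and 9.38 at 1 W TAC, and 9.44 and 9.71 at 4 W TAC. Its Sham arrays lay close together, and the ratio of -0.34 ± 0.17 at 1 W TAC compares with -0.10 ± 0.17 at 4 W TAC. Fis1, another outer membrane adaptor of fission, had 9.11 and 9.13 in Sham, 8.95 and 9.08 at 1 W TAC, and 8.96 and 8.69 at 4 W TAC. Unlike Dnm1l and Mff, its mean was lowest after 4 weeks (ratio -0.29 ± 0.17, against -0.10 ± 0.17 after 1 week), but the groups overlapped and the difference of -0.19 ± 0.17 did not pass in limma (adjusted p = 0.936). Whether fusion and fission genes differ in their ratios was not tested.

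Among the genes of the outer membrane gate, the 4 TOM genes had a median ratio of -0.33 at 1 W TAC, against -0.10 at 4 W TAC. Tomm70a, the receptor that takes carrier proteins from cytosolic chaperones, had signals of 8.44 and 7.97 in Sham, 7.61 and 7.93 at 1 W TAC, and 7.80 and 8.86 at 4 W TAC. The 4 W TAC arrays were 1.06 apart, with replicate 2 the highest and replicate 1 below both Sham arrays, so the ratio of 0.12 ± 0.39 turned to -0.41 without replicate 2. The gene Tomm40l, a paralog of the channel gene Tomm40, had 8.05 and 7.90 in Sham, 7.60 and 7.51 at 1 W TAC, and 7.75 and 7.94 at 4 W TAC. Its 1 W TAC arrays were the lowest of the 6 (ratio -0.42 ± 0.17, adjusted p = 0.438 in limma), and one of the 4 W TAC arrays lay in the Sham range (-0.13 ± 0.17).

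Tomm34, a co-chaperone in the cytosol, was the flattest of the 29 genes at 1 W TAC. Its signals were 7.34 and 7.31 in Sham, 7.25 and 7.31 at 1 W TAC, and 7.25 and 7.25 at 4 W TAC, a spread of less than 0.1 over the 6 arrays. Tomm7, a small subunit of the TOM complex, had a wide spread at 4 W TAC, with 9.34 and 8.57 on the 2 arrays. In Sham it had 9.05 and 9.16 and at 1 W TAC 8.68 and 9.06, so that all groups overlapped (ratios -0.23 ± 0.30 and -0.15 ± 0.30).

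The SAM and MICOS genes were lower on both 1 W TAC arrays than on either Sham array in 3 of 3 cases (all rows, 20.8%). Samm50, which inserts barrel proteins into the outer membrane, had signals of 8.61 and 8.45 in Sham, 8.03 and 8.19 at 1 W TAC, and 8.22 and 8.65 at 4 W TAC. Its ratio at 1 W TAC was -0.42 ± 0.21, and the 4 W TAC arrays (-0.10 ± 0.21) lay on either side of Sham. Immt and Chchd3 encode core proteins of MICOS, which holds the cristae junctions. Immt had narrow groups, with 11.14 and 11.07 in Sham, 10.85 on both arrays at 1 W TAC, and 11.05 and 11.10 at 4 W TAC. The 4 W TAC arrays of Immt were near Sham, and the ratio at 1 W TAC was -0.26 ± 0.15. Chchd3 had 10.89 and 11.00 in Sham, 10.57 and 10.65 at 1 W TAC, and 10.91 and 10.55 at 4 W TAC, where one array was in the Sham range and the other was the lowest of all.

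The small Tim chaperones and the TIM22 carrier translocase move hydrophobic carriers to the inner membrane. Timm9, which forms a chaperone ring with Timm10, had signals of 6.80 and 6.71 in Sham, 6.23 and 6.19 at 1 W TAC, and 6.31 and 6.24 at 4 W TAC. It was low on all 4 TAC arrays, with little spread within a group. The log2 ratio was -0.55 ± 0.15 at 1 W TAC (adjusted p = 0.289 in limma) and -0.48 ± 0.15 at 4 W TAC (adjusted p = 0.792), which are 31.5% and 28.3% lower. Timm8b, a chaperone of the same family, had 8.75 and 9.05 in Sham, 8.36 and 8.30 at 1 W TAC, and 9.02 and 8.45 at 4 W TAC. Its 1 W TAC arrays were the lowest (-0.57 ± 0.24), whereas one 4 W TAC array lay in the Sham range and the other below it (-0.17 ± 0.24).

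Timm22, the channel of the carrier translocase, had 7.34 and 6.95 in Sham, 6.56 and 6.70 at 1 W TAC, and 6.77 and 7.43 at 4 W TAC. Both 1 W TAC arrays lay below the rest (-0.52 ± 0.28), and the 4 W TAC arrays, 0.66 apart, spanned the Sham arrays (-0.04 ± 0.28). Timm29, a subunit of the same translocase, had ratios of -0.25 ± 0.17 and -0.03 ± 0.17 at the 2 times. Both Timm10 and Timm13 are named on 2 rows, which therefore belong to no gene of the 29. One row read 9.20 and 9.22 in Sham, 8.87 and 8.91 at 1 W TAC, and 9.51 and 8.06 at 4 W TAC, and the other 7.27 and 7.22, 7.27 and 7.28, and 7.02 and 7.20 in the same order. The first was lower at 1 W TAC (ratio -0.32) and the second was not (0.03). Of the other import rows with several symbols, the one naming Timm23, Sntg1 and Cks2 had a ratio of 0.03 at 1 W TAC. Its signals were only 3.16 to 3.29 on the 6 arrays, so it does not tell whether Timm23 changed. The row naming Timm10b and Dnhd1 had a ratio of 0.01, and the one naming Tomm6 and Prickle4 had -0.17.

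The TIM23 genes differed among themselves at 1 W TAC, with ratios from -0.75 to -0.14 and a median of -0.21. Timm21, which in yeast links TIM23 to the TOM complex and to the respiratory chain, had signals of 8.23 and 7.71 in Sham, 7.32 and 7.12 at 1 W TAC, and 7.37 on both arrays at 4 W TAC. All 4 TAC arrays lay below both Sham arrays, which were themselves 0.52 apart. The ratio was -0.75 ± 0.22 at 1 W TAC (40.5% lower, adjusted p = 0.308 in limma) and -0.60 ± 0.22 at 4 W TAC (34% lower, adjusted p = 0.853). Against Sham replicate 2 alone the ratios were -0.49 and -0.34.

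Timm17a and Timm17b encode paralogous channel-lining subunits of TIM23. Timm17a had 10.79 and 10.93 in Sham, 10.58 and 10.63 at 1 W TAC, and 10.83 and 10.44 at 4 W TAC, with ratios of -0.26 ± 0.19 and -0.23 ± 0.19. Timm17b had 7.28 and 6.89 in Sham, 6.90 and 6.93 at 1 W TAC, and 7.03 and 6.48 at 4 W TAC. Its 1 W TAC arrays equalled Sham replicate 2 to within 0.04, and the ratio of -0.17 ± 0.25 turned to 0.03 without Sham replicate 1. Timm50, the receptor that hands presequences to the channel, had 8.04 and 7.97 in Sham, 7.65 and 8.09 at 1 W TAC, and 8.05 and 8.06 at 4 W TAC. Only 1 of its 1 W TAC arrays was low, and the ratio of -0.14 ± 0.20 was 0.09 without that array.

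In the matrix, the genes of the import motor and of presequence processing had a median ratio of -0.33 at 1 W TAC, with both 1 W TAC arrays below both Sham arrays in 4 of 4 genes (all rows, 20.8%). Hspa9, the mitochondrial Hsp70 that pulls proteins in and helps to fold them, had signals of 10.07 and 9.84 in Sham, 9.40 and 9.39 at 1 W TAC, and 9.88 and 10.19 at 4 W TAC. The 1 W TAC arrays nearly coincided and lay below all others. The ratio was -0.56 ± 0.19 at 1 W TAC (32.2% lower, adjusted p = 0.355 in limma), 0.08 ± 0.19 at 4 W TAC, and 0.64 ± 0.19 between the TAC groups (adjusted p = 0.668). Timm44, which tethers Hspa9 to the channel, had 8.67 and 8.37 in Sham, 8.08 and 8.20 at 1 W TAC, and 8.32 and 8.39 at 4 W TAC (ratios -0.38 ± 0.18 and -0.17 ± 0.18). The 4 W TAC arrays of Timm44 lay around Sham replicate 2.

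Grpel1, the nucleotide exchange factor of Hspa9, had 8.39 and 8.17 in Sham, 7.89 and 8.15 at 1 W TAC, and 8.22 and 8.09 at 4 W TAC. One 1 W TAC array was close to Sham replicate 2, and the ratios were -0.26 ± 0.19 and -0.12 ± 0.19. Pmpcb, a subunit of the peptidase that removes presequences, had ratios of -0.28 ± 0.16 and -0.09 ± 0.16 at the 2 times.

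In the group of inner membrane quality control, Oma1 had the lowest adjusted p of the 29 at 1 W TAC. It encodes a metalloprotease that cleaves Opa1 when mitochondria are stressed. Its signals were 8.78 and 8.56 in Sham, 7.95 and 7.91 at 1 W TAC, and 8.36 and 8.30 at 4 W TAC. The 3 groups did not overlap, with 1 W TAC lowest and 4 W TAC between it and Sham. The ratio was -0.74 ± 0.17 at 1 W TAC (40.1% lower, adjusted p = 0.224 in limma) and -0.34 ± 0.17 at 4 W TAC (adjusted p = 0.939). Yme1l1, the other protease that processes Opa1, had 8.75 and 8.35 in Sham, 8.32 and 8.44 at 1 W TAC, and 8.29 and 9.31 at 4 W TAC. Its highest signal was on 4 W TAC replicate 2 alone, and the 4 W TAC ratio of 0.25 ± 0.36 turned to -0.26 without that array. Against Sham replicate 2 alone, Yme1l1 had a 1 W TAC ratio of 0.03.

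Phb2, a prohibitin that scaffolds the inner membrane proteases, had 10.05 and 10.03 in Sham, 9.59 and 9.69 at 1 W TAC, and 9.91 and 10.16 at 4 W TAC. Both 1 W TAC arrays were below the rest (-0.40 ± 0.17, adjusted p = 0.470 in limma), and the 4 W TAC arrays lay on either side of Sham. A row that carries both Phb, its partner, and Zfp652 had 9.84 and 9.85 in Sham, 9.02 and 9.21 at 1 W TAC, and 9.74 and 9.39 at 4 W TAC, and is assigned to neither gene here. Timmdc1, which the naming rule includes but which assembles complex I of the respiratory chain, had ratios of -0.28 ± 0.21 and -0.09 ± 0.21.

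**Figure D3:**
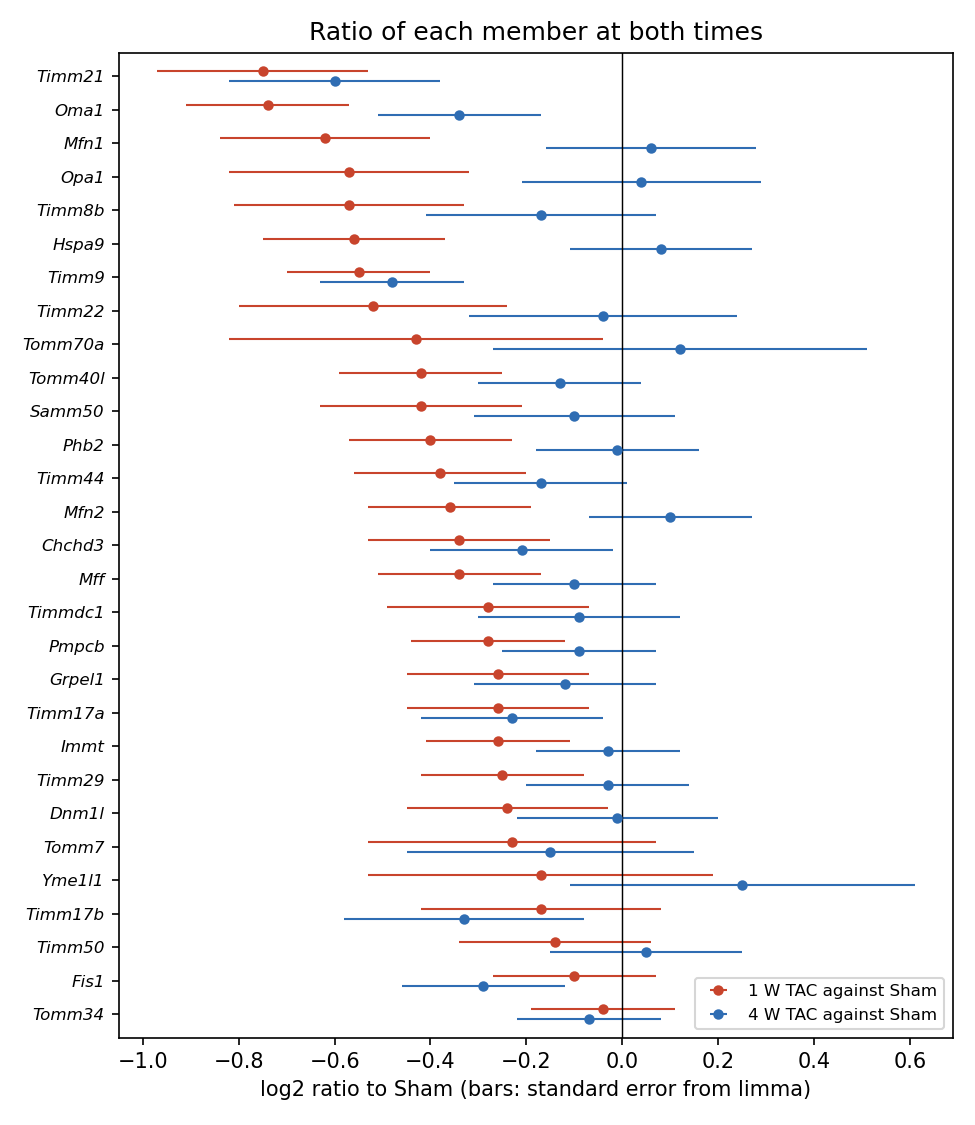
Log2 ratio to Sham (horizontal axis) of the 29 genes (vertical axis, ordered by the 1 W TAC ratio), in red for 1 W TAC and in blue for 4 W TAC, with bars of 1 standard error from limma. All red points lie below 0, from -0.75 to -0.04, and 22 of the blue points lie below 0. Both ratios of a gene use the same 2 Sham arrays.

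After 4 weeks, 5 of the 29 genes (17.2%) had both arrays below both Sham arrays (Timm21, Timm9, Oma1, Fis1 and Tomm34, the last by less than 0.1), a share near the 15.3% of all rows. Timm50 had both above, by less than 0.1, where 15.4% of all rows did. In Timm21, Timm9, Oma1 and Fis1 all TAC arrays lay below both Sham arrays, which is 13.8% of the 29 genes, beside 8.42% of all rows and 15.2% of genes with a mean signal of at least 8. The 2 arrays of a group were further apart at 4 W TAC than elsewhere, with a median range of 0.25 over the 29 genes, against 0.16 in Sham and 0.09 at 1 W TAC. Over all rows the median ranges were 0.25, 0.27 and 0.21 in the same order. Among genes with a mean signal of at least 8 they were 0.24, 0.16 and 0.15. A range over 0.3 was seen in 12 genes at 4 W TAC, 7 in Sham and 4 at 1 W TAC. On 4 W TAC replicate 2, Tomm70a, Yme1l1, Timm22 and Opa1 were higher than on replicate 1 by 1.06, 1.02, 0.66 and 0.57, while Tomm7, Timm8b and Timm17b were lower, at differences of -0.77, -0.57 and -0.55. Sham replicate 1 was above replicate 2 in 24 of the 29 genes (82.8%), as it was in 60.1% of all rows and 77.1% of genes with a mean signal of at least 8.

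Both 4 W TAC arrays lay above both 1 W TAC arrays in 18 genes, and 0 genes had both below. Over all rows these shares were 19.0% and 16.7%. Among the 1956 genes with a mean signal of at least 8, 690 had both above and 301 had both below. At an unadjusted p of 0.05 in limma, 139 of these 1956 genes were higher at 4 weeks than at 1 week and 95 lower. Of the import and dynamics genes, 3 were higher (Hspa9, Mfn1 and Mfn2) and 0 lower, beside 2.76% and 3.76% of all rows. The count was 0 without either 1 W TAC array, 7 without 4 W TAC replicate 1 and 1 without 4 W TAC replicate 2. The smallest differences between the TAC groups, within 0.15 of 0, were those of Timm17a (0.03 ± 0.19), Tomm34 (-0.03 ± 0.15), Timm9 (0.07 ± 0.15), Tomm7 (0.09 ± 0.30), Chchd3 (0.12 ± 0.19), Grpel1 (0.14 ± 0.19) and Timm21 (0.15 ± 0.22).

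Other genes of the same processes were read from lists written by general knowledge, with earlier results of these data known. As background for these lists, 50.7% of all rows and 60.4% of genes with a mean signal of at least 8 lay below 0 at 1 W TAC. At an unadjusted p of 0.05 in limma, 285 of the 1956 genes with a mean signal of at least 8 were lower and 195 higher. Of 13 other import genes found of 18 listed, 12 lay below Sham at 1 W TAC, with a median ratio of -0.32. At an unadjusted p of 0.05, 4 of the 13 were lower and 0 higher, beside 5.40% and 5.97% of all rows. They were Mipep, a peptidase of the matrix (-0.72 ± 0.19), Chchd4, the oxidoreductase of the intermembrane space pathway (-0.70 ± 0.22), Mtx2 of the outer membrane (-0.55 ± 0.19) and the insertase gene Oxa1l (-0.52 ± 0.15). Mipep had signals of 8.51 and 8.25 in Sham, 7.66 and 7.65 at 1 W TAC, and 8.08 and 7.82 at 4 W TAC, with all TAC arrays below both Sham arrays. The median of these list genes at 4 W TAC was -0.14. At an unadjusted p of 0.05, 0 of 13 passed, beside 3.15% of all rows lower and 2.55% higher.

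Of 18 other MICOS, protease and chaperone genes found of 20 listed, 16 lay below Sham at 1 W TAC, with a median of -0.28. Clpp, the proteolytic subunit of the matrix protease ClpXP, was the only one lower at an unadjusted p of 0.05 (all rows, 5.40%). Its signals were 7.85 and 7.72 in Sham, 7.22 and 7.28 at 1 W TAC, and 7.26 and 7.23 at 4 W TAC, low on all TAC arrays as Timm9 was. The exceptions above 0 were Lonp1, another matrix protease (0.25 ± 0.20), and Chchd6 of MICOS (0.17).

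Of 21 other dynamics, transport and mitophagy genes found of 25 listed, 15 lay below Sham at 1 W TAC, with a median of -0.26. Of these 21, 5 were lower at an unadjusted p of 0.05 and 0 higher, beside 5.40% and 5.97% of all rows. Mtfp1, an inner membrane protein of fission, had 8.16 and 7.89 in Sham, 7.21 and 6.93 at 1 W TAC, and 7.76 and 7.81 at 4 W TAC. Its ratio of -0.95 ± 0.19 was larger in size than that of any of the 29 genes, and it was -0.24 ± 0.19 at 4 W TAC. Pink1, the kinase that marks damaged mitochondria for removal, had 9.62 and 9.43 in Sham, 8.84 and 8.47 at 1 W TAC, and 9.12 and 9.41 at 4 W TAC (-0.87 ± 0.21 at 1 W TAC). Rhot2, which couples mitochondria to microtubule motors, had -0.84 ± 0.18, Mtfr1 -0.58 ± 0.22 and the mitophagy receptor gene Fundc1 -0.54 ± 0.19. The mitophagy receptor gene Bnip3 was at 0.10 ± 0.17. Adjusted p in limma was 0.194 for Mtfp1 and at or above that for all genes of these lists.

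Of 12 regulators of mitochondrial biogenesis found of 14 listed, 11 lay below Sham at 1 W TAC, with a median of -0.33. Of these 12, 4 were lower at an unadjusted p of 0.05 and 0 higher, beside 5.40% and 5.97% of all rows. Tfam, which packages and transcribes mitochondrial DNA, had 7.33 and 6.95 in Sham, 6.20 and 6.59 at 1 W TAC, and 6.88 and 7.20 at 4 W TAC (-0.74 ± 0.24 at 1 W TAC). Ppargc1a, a coactivator of genes for mitochondria, had 9.58 and 9.12 in Sham, 8.83 and 8.49 at 1 W TAC, and 9.15 and 8.95 at 4 W TAC (-0.69 ± 0.23). The nuclear receptor genes Esrrg and Esrrb had ratios of -0.66 ± 0.20 and -0.51 ± 0.19. Gabpa, which encodes the ETS factor of the promoter search, had -0.34 ± 0.17, and Nrf1 had -0.12 ± 0.17.

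The last list joined genes of the mitochondrial unfolded protein response and, for the greater part, of the integrated stress response. Of 14 found of 16 listed, 10 were above Sham at 1 W TAC, with a median of 0.24. Of these 14, 2 were higher at an unadjusted p of 0.05 and 0 lower, beside 5.97% and 5.40% of all rows. The 4 below Sham were Asns (-0.17), Shmt2 (-0.10), Atf5 (-0.07) and Cebpb (-0.04), and Hspa9 and Clpp, chaperone and protease genes of the mitochondrial unfolded protein response described above, were also below it. Those higher at this p were Aldh18a1, an enzyme of proline synthesis (0.70 ± 0.23), and Mthfd2 of mitochondrial folate metabolism (0.66 ± 0.21). Atf4, the transcription factor of the integrated stress response, had 7.52 and 7.40 in Sham, 7.65 and 7.75 at 1 W TAC, and 7.34 and 7.19 at 4 W TAC (0.24 ± 0.16 at 1 W TAC).

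Set beside 2 larger families of nuclear genes for mitochondria, the 29 genes had ratios of similar size at 1 W TAC. The 68 genes of the mitochondrial ribosome had medians of -0.37 at 1 W TAC, -0.19 at 4 W TAC and 0.20 between the TAC groups, and 65 lay below 0 at 1 W TAC. The 54 genes of the respiratory chain and ATP synthase had medians of -0.46, -0.24 and 0.23, with 51 below 0 at 1 W TAC. After 4 weeks both families had medians further below 0 than the 29 genes (-0.09). Whether the families differ from the 29 genes was not tested.

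**Figure D4:**
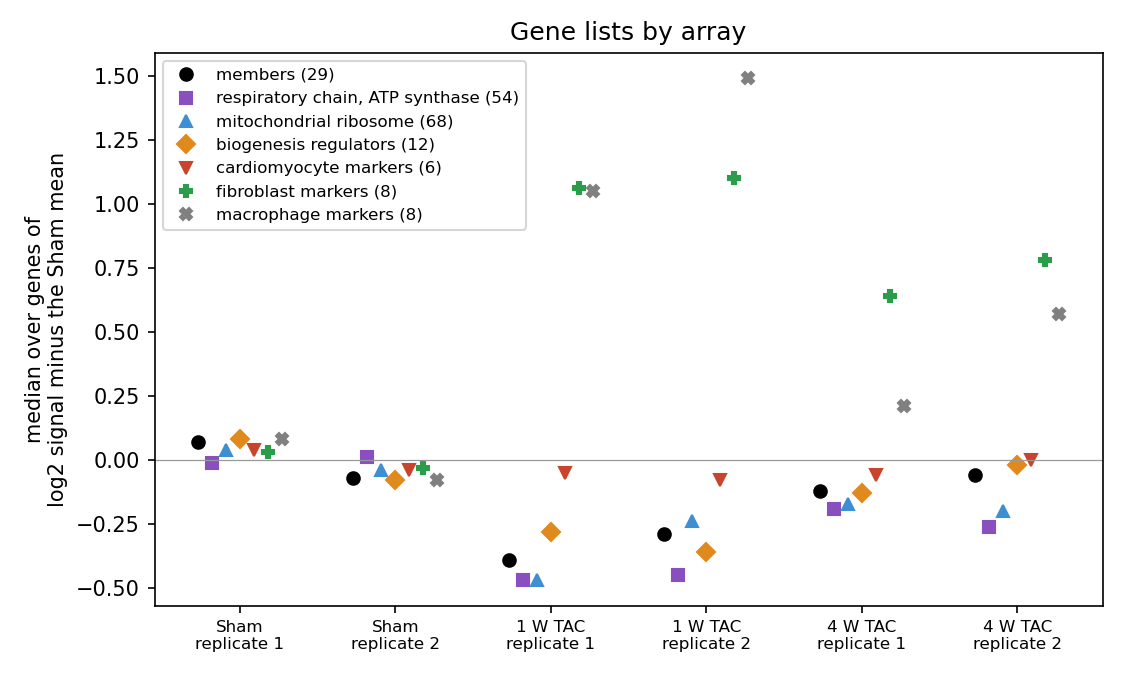
Median over the genes of each list of the log2 signal minus the Sham mean (vertical axis) on the 6 arrays (horizontal axis), with the number of genes in brackets in the legend. On the 1 W TAC arrays the 29 genes lay at -0.39 and -0.29, cardiomyocyte markers at -0.05 and -0.08, fibroblast markers at 1.06 and 1.10, and macrophage markers at 1.05 and 1.49.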

How the data were processed

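The authors hybridized RNA of 6 left ventricles, 1 per array, to Affymetrix GeneChip Mouse Exon 1.0 ST arrays, and deposited log2 signals that robust multi-array averaging (RMA) in Affymetrix Expression Console gave: RMA corrects the background, normalizes the arrays by quantiles and summarizes all probes of a transcript cluster. No program version is stated in the sources used here. Quantile normalization gives all arrays the same distribution, so a shift shared by most genes would not be seen. RNA was extracted with Trizol per the labels and with a column kit per the study's methods. The genome build behind the array annotation is likewise not stated. Columns were matched to groups by the sample titles.

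The log2 values were used without further normalization or filter. A model with 1 mean for each group was fitted in R 4.3.3 with limma 3.58.1 (lmFit, eBayes, two-sided), with 3 residual and 2.68 prior degrees of freedom (prior SD 0.219), and p values were adjusted by Benjamini-Hochberg over all 23332 rows, of which 14996 carry 1 gene symbol, 1019 several and 7317 none. Standard errors come from limma. The fit was tested on simulated data. Plots and the promoter search used Python 3.11.15 with pandas 2.3.3 and matplotlib 3.10.9. The number of arrays limits the precision. Mitochondrial ribosome and respiratory chain genes were taken by symbol prefix. The genes and lists were chosen with earlier results of these data known. Values on every array are given for the genes with the lowest and highest ratios, for the fusion, fission and matrix chaperone genes, and, chosen after their values were seen, for further genes, among them Tomm7, Immt, Chchd3, Timm17a, Timm44, Samm50, Tomm40l and Phb2. Lonp1, Chchd6, Bnip3, Gabpa, Nrf1 and Atf4 were likewise named after their values were seen; the other named list genes are those with an unadjusted p under 0.05 at 1 W TAC. Alternatives were a replicate block, 2-group fits, rows with 1 symbol, a filter at a mean of 6, arrays centred on their median, a prior that follows the mean signal, the methods' t-test, each array left out, and the 2 arrays with high Ucp1 left out. Marker lists of endothelial cells, smooth muscle cells, erythroid cells, neutrophils and skeletal muscle were also read. Their median ratios at 1 W TAC were -0.10, -0.01, -0.77, 0.17 and 0.54, over 8, 6, 2, 4 and 4 genes found. The 2 erythroid genes found of 5 listed were Alas2 (-1.39) and Slc4a1 (-0.15). The 4 skeletal muscle genes found of 7 listed went in both directions, from -0.55 (Ckm) to 1.43 (Acta1). The detection filter of the study, exon-level values and its other datasets were not used here.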

Additional observations from a re-analysis of the deposited data

How the results depend on the processing

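The median ratio of the 29 genes kept its direction at 1 W TAC (-0.41 to -0.29 with each array left out, -0.38 with arrays centred on their median) and between the TAC groups (0.18 to 0.28 and 0.26). At 4 W TAC it ran from -0.15 to -0.01 with each array left out and reversed to 0.02 without the 2 arrays with high Ucp1, where 12 genes lay below 0 in place of 22. With an array left out, 27 to 29 genes lay below 0 at 1 W TAC, 17 to 26 at 4 W TAC, and 23 to 26 were higher at 4 W TAC than at 1 W TAC. The number past an adjusted p of 0.05 was 0 in every alternative and comparison. With only the 14996 rows of 1 symbol, 63 rows were lower and 205 higher at 1 W TAC, none of them among the 29, whose lowest adjusted p was 0.0692 (Oma1).

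Counts at an unadjusted p of 0.05 moved more. The 6 genes lower at 1 W TAC became 3 with the replicate block, 11 with the prior by mean signal, 2 with the methods' t-test, 2 without the 2 arrays with high Ucp1, and 1 to 7 with each array left out. The 2 genes lower at 4 W TAC became 1 with the replicate block and in the 2-group fit, 0 with the t-test, 0 without the 2 arrays with high Ucp1, and 0 to 2 with each array left out. The 3 genes higher at 4 W TAC than at 1 W TAC became 6 with rows of 1 symbol, 5 with the filter at a mean of 6, 6 with centred arrays, 6 with the prior by mean signal, 0 with the t-test, 6 without the 2 arrays with high Ucp1, and 0 to 7 with each array left out. The causes were not tested. Shares over all rows at this p are given for the main fit only, and not for these settings. The counts therefore cannot tell a change in the genes described here from a model that calls more or fewer rows everywhere. The same holds for the counts with arrays left out in the sections above. The labels link arrays of the same number by that number alone. Over genes, correlations of the deviations of replicate 1 were -0.20 for Sham and 1 W TAC, -0.27 for Sham and 4 W TAC, and 0.15 for both TAC groups. Sham replicate 1 and 4 W TAC replicate 1 both had high Ucp1 and Adipoq, and whether arrays of the same number were prepared together was not tested. The replicate block cannot change a median, since each group holds 1 array of each number.

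Of 345 values of single genes, 336 kept their direction, but most of the settings could not have changed it. The replicate block, 2-group fits, choice of rows, prior by mean signal and t-test leave every ratio of a gene as it is. So does leaving out an array of the group that is not compared. Only the centred arrays and the other settings with arrays left out could reverse a ratio. With each array left out, Timm17b ran from -0.36 to 0.03 at 1 W TAC (above 0 without Sham replicate 1, and 0.03 also without the 2 arrays with high Ucp1) and Timm50 from -0.35 to 0.09 (above 0 without 1 W TAC replicate 1). At 4 W TAC, Hspa9 ran from -0.07 to 0.23, Mfn2 from -0.02 to 0.21, Tomm70a from -0.41 to 0.66 and Yme1l1 from -0.26 to 0.76, each lowest without 4 W TAC replicate 2. Without Sham replicate 2, Hspa9 (-0.04) and Tomm70a (-0.11) were also below 0.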
